A study of Mus musculus with 6 samples.

Results

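In the hippocampus of 30-day-old mice, 348 RNAs that RefSeq lists as noncoding were measured under provisional symbols only. Of these, 247 have a RIKEN clone symbol ending in Rik and 101 have a gene-model symbol made of Gm and a number. They were chosen from the authors' deposited expression table by symbol, by a noncoding transcript identifier and by level. For each gene the noncoding transcript row with the highest mean was kept, and that mean over the 6 libraries had to reach 50 normalized read equivalents. A read equivalent is the deposited base coverage of a transcript divided by 42, the read length inferred from the values. Of the 348, 11 belong to genes that also have coding transcript rows, and for 5 a row other than the one kept was the gene's highest. The 348 RNAs are part of 1956 genes with such a symbol and a noncoding row, and of 25785 gene names in all. Their levels chose them and are given as a description only. The rule did not use the difference between genotypes, but it was set with earlier results of these data known. Just inside the limit lay Gm38413, 2610203C22Rik, A630066F11Rik and Gm10390, with means of 51.8, 51.3, 50.7 and 50.4 read equivalents. Just outside lay 4930539N22Rik, Gm12060, A930005H10Rik and 6430584L05Rik, with 49.9, 49.8, 49.4 and 49.0.

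The groups were 3 libraries from PTCHD1 mutant mice and 3 from wild-type mice, all of strain C57B1/6J as the labels spell it, at postnatal day 30. Ptchd1 encodes a patched-domain membrane protein and is linked to intellectual disability and autism in humans. Each library came from whole hippocampus, from total RNA depleted of ribosomal RNA, and kept strand information. The labels do not give the mutant allele, the sex, the litter or which libraries shared a sequencing lane, and do not say whether libraries came from separate animals. The p-values therefore measure only the spread between these samples, which may be technical. In tissue RNA, fewer cells of a type and less RNA per cell cannot be told apart.

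Long noncoding RNAs are transcribed and often spliced like messenger RNAs but are not known to be translated. Some act in the nucleus on neighbouring genes, some bind proteins or microRNAs in the cytoplasm, and some are hosts from which microRNAs or small nucleolar RNAs are cut. Transcribed pseudogenes are copies of coding genes that are still copied into RNA. A provisional symbol says only that a clone or model exists, and the class of such an RNA can change when it is studied. Of the 348 RNAs, 347 were found in the RefSeq gene table for GRCm38.p6. That table lists 277 as long noncoding RNA, 46 as transcribed pseudogene and 22 as protein-coding, with 3 in other classes or unmatched. It gives 27 of them another symbol, among them Norad (2900097C17Rik), Oip5os1 or Cyrano (1700020I14Rik), Chaserr (1810026B05Rik), Snhg14 (C230091D08Rik), Cdr1os (C230004F18Rik), Mir100hg (3110039I08Rik), Mir124-2hg (2610100L16Rik), Cerox1 (2810468N07Rik) and the coding gene Mtln (1500011K16Rik).

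The sequences that give 2 groups of these RNAs their known roles are shown here. The 242 members with a RefSeq promoter entry, which gives their strand, were searched for microRNA genes, and 10 members held 21 microRNA genes on the same strand. The mature microRNAs below come from RefSeq on GRCm38.p6, written 5′ to 3′, with the seed (bases 2 to 8, which pairs with target messages) in capitals. They are shown because they say what each host RNA carries. The 2 microRNAs of A330023F24Rik share a seed, and the 7 miR-344 genes of A230057D06Rik include the 2 shared seeds AUAUAAC and GAUCUAG.
miR-29b-3p (A330023F24Rik, chr1:195037091-195037113, plus strand): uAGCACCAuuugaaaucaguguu
miR-29c-3p (A330023F24Rik, chr1:195037600-195037621, plus strand): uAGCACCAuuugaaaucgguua
miR-9-5p (C130071C03Rik, chr13:83738821-83738843, plus strand): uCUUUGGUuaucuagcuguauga
miR-100-5p (Mir100hg, chr9:41531437-41531458, plus strand): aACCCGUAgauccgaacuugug
miR-125b-5p (Mir100hg, chr9:41581940-41581961, plus strand): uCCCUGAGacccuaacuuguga
miR-101a-3p (E130102H24Rik, chr4:101346957-101346977, minus strand): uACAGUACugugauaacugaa
miR-433-3p (6430411K18Rik, chr12:109591781-109591802, plus strand): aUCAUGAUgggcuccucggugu
miR-344d-3p (A230057D06Rik, chr7:61726256-61726277, minus strand): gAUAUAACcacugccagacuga
miR-344e-3p (A230057D06Rik, chr7:61735539-61735560, minus strand): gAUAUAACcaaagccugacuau
miR-344c-3p (A230057D06Rik, chr7:61837323-61837345, minus strand): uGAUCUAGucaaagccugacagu
miR-344-3p (A230057D06Rik, chr7:61877782-61877804, minus strand): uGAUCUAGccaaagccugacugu

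Norad, transcribed from chromosome 2, is known in human and mouse cells to bind the Pumilio proteins, which recognise a short element in RNA. The element was searched as TGTANATA (N is any base) on the transcript strand of the 287 members with a GENCODE M21 transcript. Norad held 11 in 4915 bases, or 2.24 per 1000 bases. The other 286 transcripts held 65 in 628 kilobases, or 0.103 per 1000 bases; 229 of them had none and no other had more than 2. Of the 11 elements of Norad 6 read TGTATATA, 2 TGTAAATA and 3 TGTACATA. A few are shown, of each form, with 8 bases on each side and the element in capitals. Each is named by the position of its first element base in the GENCODE M21 transcript (GRCm38).
Norad 651: aagtcctgTGTATATAatatgaaa
Norad 1523: gactgctgTGTATATAgtggacaa
Norad 1624: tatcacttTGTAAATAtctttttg
Norad 1829: gtgtatacTGTATATAatggacaa
Norad 2451: gtatatatTGTACATActggacaa

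**Figure D1:**
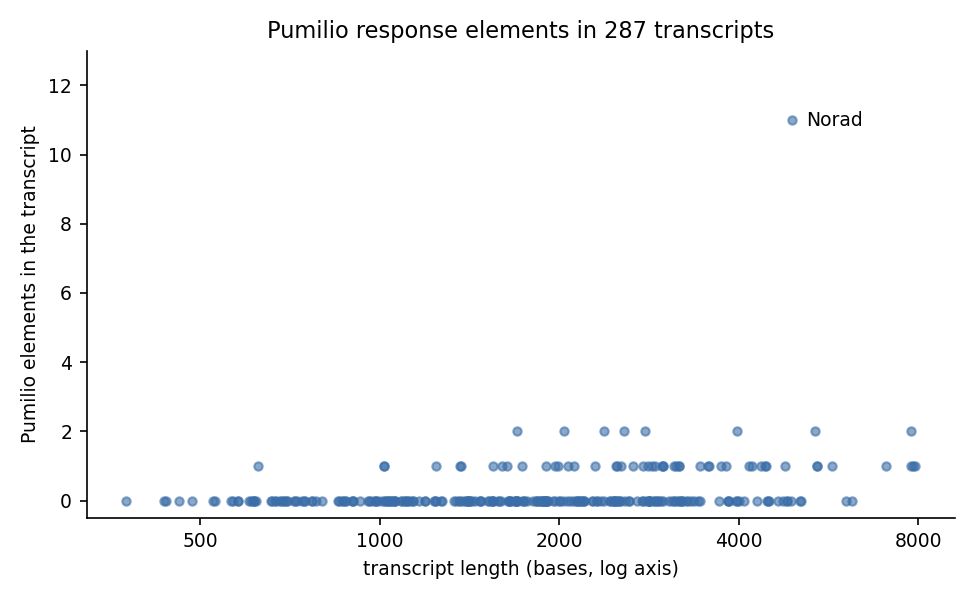
Number of Pumilio elements (TGTANATA) against transcript length in bases (log axis) for 287 transcripts, 1 point each. Norad stands at 11 elements in 4915 bases, and no other transcript passes 2.

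Facts that touch every result below come from the whole table. The libraries held 12450138 to 23747908 read equivalents before scaling. Ptchd1 itself, which checks the labels, had 181, 150.0 and 130.0 read equivalents in mutant libraries, against 323, 389 and 411 in wild-type libraries, with no overlap between the groups. Its log2 change was -1.28 ± 0.14 (SE) with a limma adjusted p of 0.0342 (Benjamini-Hochberg over 15717 genes), the only call of that test, and several alternative fits lost it, with adjusted p-values up to 0.371 among those that kept at least 2 libraries a group. Mutant replicate 1 stood apart among these noncoding RNAs: the SD of their log2 deviations from the 6-library mean was 0.301 there and 0.170 to 0.201 in the other libraries. Deviations of all genes followed GC content most in mutant replicate 1 (Spearman 0.431) and wild-type replicate 2 (-0.477); across the 287 noncoding RNAs with a transcript sequence these were 0.265 and -0.289. The summed level of 11 choroid plexus markers was 6608, 4985 and 5006 read equivalents in mutant libraries, against 86028, 4729 and 33930 in wild-type libraries, so wild-type replicates 1 and 3 stood apart. Markers of the labelled tissue were present in every library: the sum of 6 pyramidal neuron markers was 50077 to 52333 in mutant and 43642 to 46199 in wild-type libraries. That of 5 dentate granule neuron markers was 5894 to 7562 in mutant and 7385 to 8010 in wild-type libraries. The sum of 6 thalamus markers was 1787, 3271 and 1860 in mutant libraries, against 2099, 1876 and 1959 in wild-type libraries. That of 10 oligodendrocyte markers was 62187, 78962 and 74818 in mutant libraries, against 86374, 74585 and 75878 in wild-type libraries. All 11 choroid plexus markers had lower means in mutant libraries, at a median log2 change of -2.20. The part of cell composition, of GC content and of depth in the results was not tested beyond the values given.

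The 348 RNAs spanned means of 50.4 to 39724 read equivalents, with a median of 125. Most were low: 139 lay under 100 read equivalents and 40 reached 500, of which 17 reached 1000. Norad alone held 29.2% to 30.5% of all read equivalents of the 348 in mutant libraries and 29.4% to 32.8% in wild-type libraries. It had 37504, 37729 and 39681 read equivalents in mutant libraries, against 37101, 44998 and 41333 in wild-type libraries. The mutant values lay within the range of the wild-type ones, and the log2 change was -0.10 ± 0.08 (SE), with a limma adjusted p of 0.529. The 95% interval of that change ran from -0.28 to 0.08.

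Several of the next in level have known roles. C230091D08Rik is now listed under Snhg14, the long transcript of the Prader-Willi and Angelman region that hosts small nucleolar RNAs. It had 2774, 3163 and 3079 read equivalents in mutant libraries, against 2969, 3106 and 2731 in wild-type libraries. The groups overlapped, and the log2 change was 0.03 ± 0.07 (SE). The separate Snhg14 row of the table had 1466, 1917 and 1919.6 in mutant libraries, against 1931, 2526 and 1975 in wild-type libraries, wholly below wild type by a narrow margin, at a log2 change of -0.28 ± 0.12 (SE). Cyrano (1700020I14Rik), known in mouse to direct the decay of miR-7, had 2199, 2961 and 3005 read equivalents in mutant libraries, against 2829, 3061 and 3024 in wild-type libraries. Here mutant replicate 1 alone was low and the other 2 mutant values lay among the wild-type ones. A330023F24Rik, the host of 2 miR-29 genes, had 2180.3, 2135 and 2309 read equivalents in mutant libraries, against 2001, 2256 and 2093 in wild-type libraries and also overlapped.

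The rest of the 10 with the highest means have no role that is stated here. 4933431E20Rik had 1897, 1919.7 and 1966 read equivalents in mutant libraries, against 1911, 1967 and 1883 in wild-type libraries, the tightest set of values among these 10. 1110002L01Rik had 1757, 1761 and 1655 read equivalents in mutant libraries, against 1599.9, 1804 and 1729 in wild-type libraries. The pseudogene-class RNA 6820431F20Rik had 2626, 2561 and 2368 in mutant libraries, against 2383, 2546 and 2332 in wild-type libraries. Gm13363, of the same class, had 2313, 2215 and 2235 in mutant libraries, against 2210.1, 2408 and 2409 in wild-type libraries. In each of these 4 the groups overlapped and the log2 change was within 0.06 of 0. The pseudogene Gm12338 differed from them, with 939, 1478 and 1661 read equivalents in mutant libraries, against 1584, 1979 and 1889.8 in wild-type libraries and a log2 change of -0.45 ± 0.17 (SE), but its highest mutant value lay above its lowest wild-type value.

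Per base of transcript, Norad was covered 339 times on average over the 6 libraries. Cyrano followed at 86.6, then 2900060B14Rik at 72.2, Gm15772 at 61.7 and Gm7977 at 50.3. These lengths are those of the matched GENCODE transcript, which can be shorter than the RefSeq one, so per-base coverage can be overstated. The last 2 are near-copies of abundant coding messages, and 2900060B14Rik encloses a small nuclear RNA gene (Gm22710) in GENCODE, so their coverage can include reads of those genes.

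The comparison of mutant with wild-type hippocampus asks how many of these RNAs differ with Ptchd1 genotype. Limma called none of the 348 higher and none lower at an adjusted p of 0.05, where the background over all genes tested was 0.0% higher and 0.00636% lower. The lowest adjusted p among them was 0.109. At an unadjusted p under 0.05, 22 were higher and 23 lower (12.9% in all, against 18.7% of all genes tested: 9.01% higher and 9.7% lower). In 36 RNAs every mutant library lay above every wild-type library (termed wholly higher), and in 27 every mutant library lay below (wholly lower). Those are 10.3% and 7.76% of the 348, against 12.3% and 12% of all genes tested, so both shares lay below the background, and 63 in either direction were 18.1%, against 24.3%. Among the 13145 genes tested that reach the same level limit, these shares were 13.7%, 12.6% and 26.3%. The 348 had a median level of 125 read equivalents, against 356 for all genes tested and 508 for those 13145. The part of level in these shares was not tested. With 3 against 3 libraries, an exact permutation test of a single RNA cannot go below a two-sided p of 0.1. From the p-values in the authors' deposited table, adjusted over the same genes, 6 were higher and 7 lower (1.72% and 2.01%, against 4.57% and 3.23% of all genes tested). With library quality weights limma called 6 higher and 3 lower (1.72% and 0.862%, against 2.94% and 2.18% of all genes tested), among them Mtln, G530011O06Rik and 9130221H12Rik. Without mutant replicate 1 and wild-type replicate 2, which follow GC content most, 81 were wholly higher and 43 wholly lower (23.3% and 12.4%, against 20.8% and 21.4% of all genes tested). Without wild-type replicates 1 and 3, high in choroid plexus markers, 91 and 112 lay wholly above and below the 1 wild-type library left (26.1% and 32.2%, against 29.2% and 33.6% of all genes tested). With fewer libraries that have to lie apart, both backgrounds are higher than with all 6. At an unadjusted limma p under 0.05, 10 were higher and 7 lower without the libraries that follow GC content most (2.87% and 2.01%, against 5.73% and 5.97% of all genes tested). With the 1 wild-type library left, whose spread is assumed to be that of the mutant libraries, 12 were higher and 12 lower (3.45% each, against 5.55% and 5.45%).

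The median log2 change of the 348 was 0.0009, with 174 positive and 174 negative, against -0.02 for all genes tested. Changes were small: 4 lay above 0.5 and 9 below -0.5 on the log2 scale, and only G530011O06Rik passed 1. The 95% intervals of 338 RNAs lay wholly within 1 of 0 on the log2 scale. For 192 the interval lay within 0.5. Precision followed depth: the median half-width of the interval was 0.39 for the 139 RNAs at 50 to 99 read equivalents and 0.21 for the 40 at 500 or more.

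**Figure D2:**
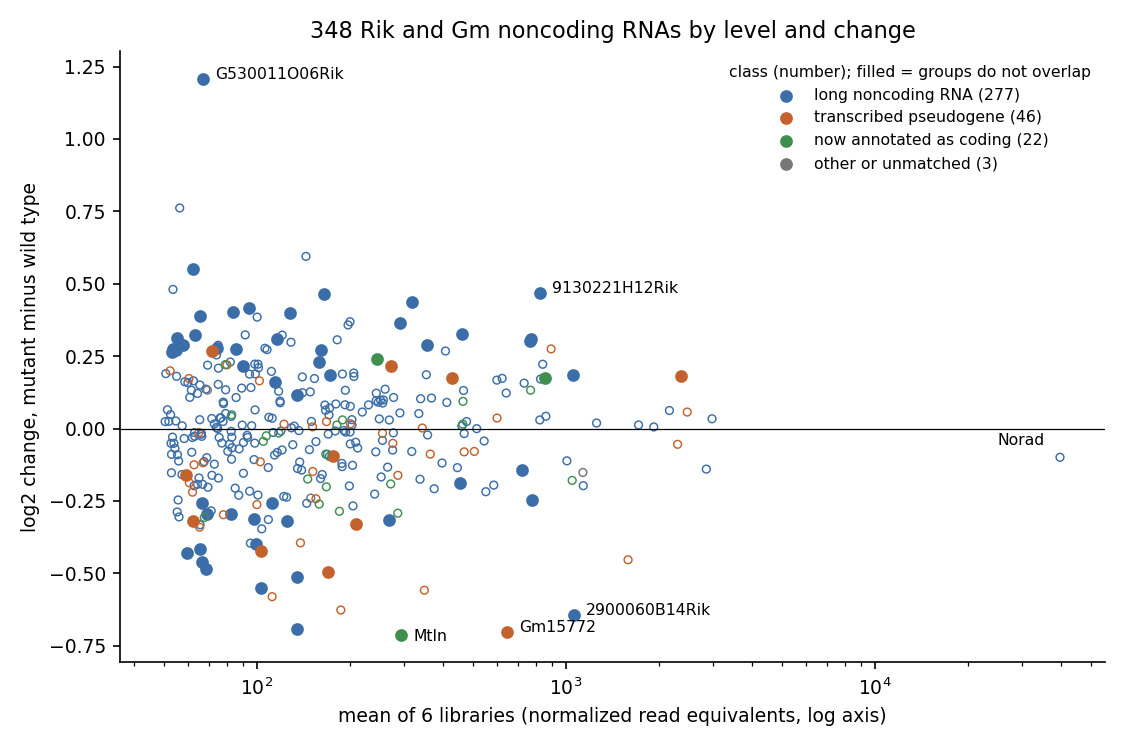
Log2 change (mutant minus wild type) against the mean of 6 libraries in normalized read equivalents (log axis) for the 348 RNAs, 1 point each, coloured by RefSeq class; filled points are the 63 whose groups do not overlap. Most points lie within 0.5 of 0, and G530011O06Rik alone lies above 1.

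Over all genes tested, 12.3% were wholly higher and 12% wholly lower, and 8365 of 15717 log2 changes were negative. By class, the 277 long noncoding RNAs had a median log2 change of 0.01. In mutant libraries 30 of them were wholly higher and 19 wholly lower (10.8% and 6.86%). The 46 transcribed pseudogenes had a median of -0.09, and 30 of the 46 were negative. Of the 46, 4 were wholly higher and 7 wholly lower (8.7% and 15.2%). The 22 RNAs now listed as coding had a median of -0.03, with 2 wholly higher and 1 wholly lower (9.09% and 4.55%). Noncoding RNAs with established names at the same level (323) had a median of -0.03. Of these, 33 were wholly higher and 55 wholly lower (10.2% and 17%). Small RNA genes at that level (64) had a median of -0.75, with 2 wholly higher and 46 wholly lower (3.12% and 71.9%). Coding genes with Rik or Gm symbols (299) had a median of -0.06, with 29 wholly higher and 36 wholly lower (9.7% and 12%). No test was made between these sets.

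**Figure D3:**
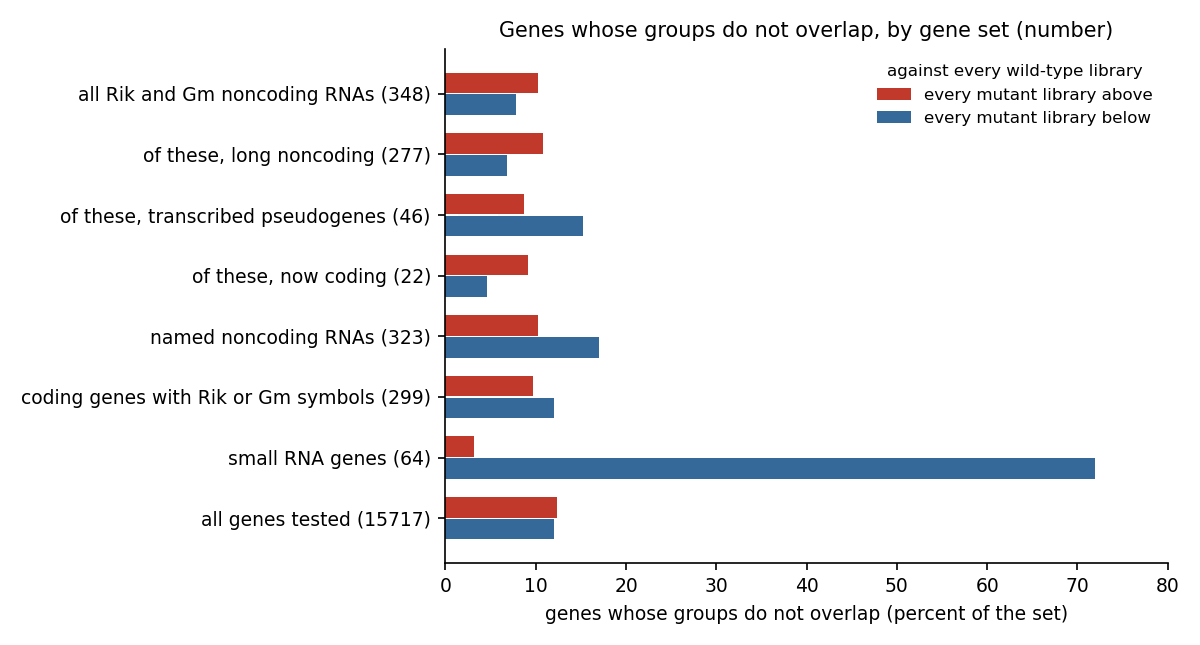
Percent of each gene set in which all 3 mutant libraries lie above (red) or below (blue) all 3 wild-type libraries, with the number of genes in brackets. The 348 RNAs stand at 10.3% and 7.76%, against 12.3% and 12% of all genes tested, and the small RNA genes at 3.12% and 71.9%. All shares are without correction for GC content and length.

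The counts moved when base composition and length of the transcript were corrected for. The noncoding RNAs had a median GC content of 47.6% and a median length of 1883 bases, against 50.2% and 2962 bases for all genes tested with a sequence. Across the 287 with a sequence the log2 change was higher at higher GC content (Spearman 0.15, against 0.36 over all genes tested), given as a description; all share the same 6 libraries. Each library was then corrected for a smooth trend with GC content and length. For the 61 without a sequence, only the median deviation of all genes tested in that library was taken off. After this correction 68 of the 348 were wholly higher and 15 wholly lower (19.5% and 4.31%, against 12.5% and 7.23% of all genes tested). Of the 36 higher RNAs 33 were among the 68, and of the 27 lower ones 14 were among the 15. The median log2 change became 0.08, against 0.007 for all genes tested. Under this correction as well, limma called none of the 348.

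Among the 10 RNAs with the smallest p in the higher direction, 9130221H12Rik, of unknown function, on chromosome 7 near Zfp526, was the most abundant. It had 1084, 903 and 876 read equivalents in mutant libraries, against 741, 618 and 707 in wild-type libraries, and every mutant value was above every wild-type value. Its log2 change was 0.47 ± 0.10 (SE), with a limma adjusted p of 0.109. From the p-values in the authors' deposited table its adjusted p was 0.000243. Zfp526, its nearest coding neighbour on the same strand, had a log2 change of 0.31 and overlapping groups.

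G530011O06Rik had the largest difference of the 348. It had 57.4, 121 and 105 read equivalents in mutant libraries, against 29.2, 43.6 and 44.7 in wild-type libraries. The lowest mutant value was above the highest wild-type value, and mutant replicate 1 was well below the other 2 mutant libraries. The log2 change was 1.21 ± 0.28 (SE), with a limma adjusted p of 0.117 and, from the authors' deposited p-values, 0.00058. RefSeq on GRCm38.p6 places copies of this RNA on X and Y, at the pseudoautosomal end, antisense to Mid1, and reads of the 2 copies may not be told apart. Mid1 itself had 108, 114 and 106 in mutant libraries, against 115, 101 and 95.5 in wild-type libraries, with overlapping groups. Ddx3y of the Y chromosome was present in every library, at 1794, 1922 and 2224 in mutant libraries, against 2339, 2685 and 2424 in wild-type libraries, and Xist was low in every library, at 21.2, 26.8 and 23.4 in mutant libraries, against 38.8, 15.4 and 16.4 in wild-type libraries.

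6530402F18Rik overlaps Ntng2, which encodes netrin-G2, on the same strand, and both were wholly higher, Ntng2 by a narrow margin. The noncoding RNA had 411, 344 and 341 read equivalents in mutant libraries, against 291, 261 and 254 in wild-type libraries, and Ntng2 had 308, 247 and 254 in mutant libraries, against 247, 173 and 205 in wild-type libraries. Their log2 changes were 0.44 ± 0.11 (SE) and 0.38 ± 0.14 (SE). Because they share a strand, part of the coverage of 1 can come from the other.

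No role is stated here for the remaining higher RNAs named. A230070E04Rik, on chromosome 14, had 829, 928 and 803 read equivalents in mutant libraries, against 719, 637 and 711 in wild-type libraries. Gm11149, on chromosome 9, had 579, 510.4 and 451 in mutant libraries, against 448, 388 and 389.9 in wild-type libraries. A930013F10Rik, on chromosome 8, had 324, 330.2 and 321 in mutant libraries, against 302, 258 and 206 in wild-type libraries. In all 3 the groups were apart, narrowly in Gm11149, at log2 changes of 0.31 ± 0.09 (SE), 0.33 ± 0.11 (SE) and 0.37 ± 0.13 (SE). Gm10532 had 219, 185 and 167 in mutant libraries, against 150.4, 110.5 and 154 in wild-type libraries. Gm38426 had 97.9, 63.7 and 63.0 in mutant libraries, against 51.7, 50.1 and 47.3 in wild-type libraries. Their log2 changes were 0.46 ± 0.16 (SE) and 0.55 ± 0.20 (SE). In Gm38426 mutant replicate 1 was far above the other 5 libraries, which lay close together. The 36 wholly higher RNAs ranged in log2 change from 0.12 to 1.21, with a median of 0.28.

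**Figure D4:**
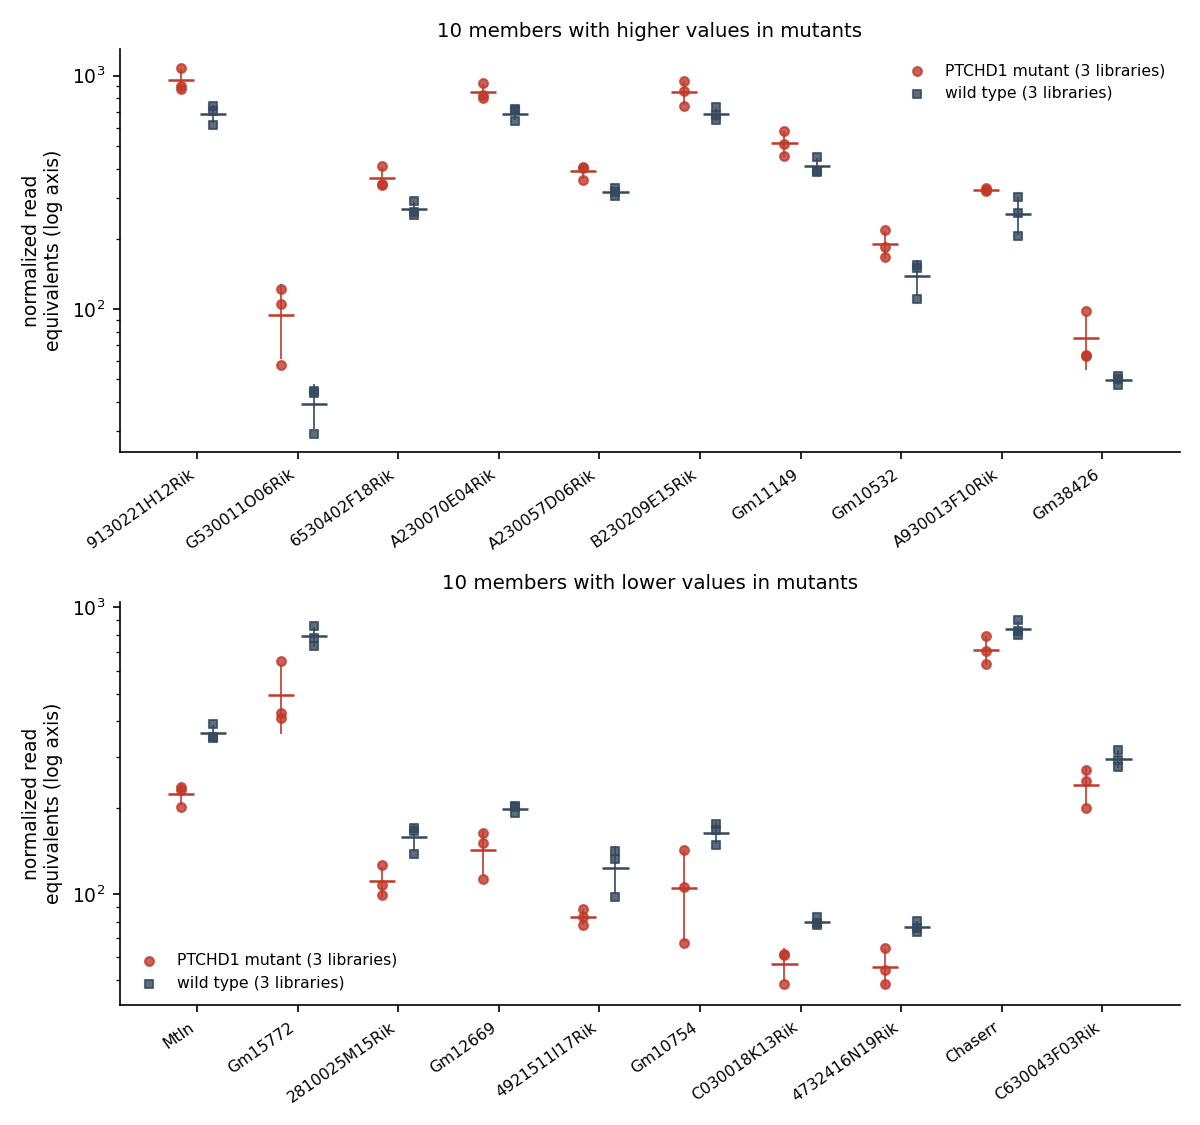
Normalized read equivalents (log axis) in each library for the 10 higher and the 10 lower RNAs with the smallest p among those whose groups do not overlap; red circles are mutant libraries, dark squares wild-type libraries, the bar is the mean and the vertical line the SD (n = 3). In the upper panel the red points lie above the dark ones for every RNA, most widely for G530011O06Rik, and in the lower panel they lie below.

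The RNA with the smallest p of all 348 is no longer listed as noncoding. 1500011K16Rik is now Mtln, which encodes mitoregulin, a microprotein of the inner mitochondrial membrane known in mouse and human to support respiration and fatty acid oxidation. It had 201, 229.9 and 236 read equivalents in mutant libraries, against 353, 391 and 349 in wild-type libraries, and the highest mutant value was far below the lowest wild-type value. Means were 222 ± 18.8 in mutant and 364 ± 23.1 in wild-type libraries (SD, n = 3 each), a ratio of 0.61, the lowest of the 348. The log2 change was -0.71 ± 0.10 (SE), with a limma adjusted p of 0.109; without mutant replicate 3 the limma adjusted p was 0.0477. From the authors' deposited p-values it was 2.62e-06. The start region of Mtln is shown because this RNA had the lowest p (RefSeq, GRCm38.p6, chr2:127792439-127792738, minus strand, 250 bases before to 50 after the start).
Mtln: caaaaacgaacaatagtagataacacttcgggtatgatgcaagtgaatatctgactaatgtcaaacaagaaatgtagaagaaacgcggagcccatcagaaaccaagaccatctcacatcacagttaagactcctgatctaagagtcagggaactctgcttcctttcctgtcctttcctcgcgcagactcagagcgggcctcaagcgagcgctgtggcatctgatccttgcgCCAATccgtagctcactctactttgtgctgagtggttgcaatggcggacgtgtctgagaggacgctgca
It holds 14 CpG dinucleotides, against a median of 13.5 in the 242 member promoters and 7 in 27025 promoters of all genes. The promoters were searched on both strands for 3 motifs, and the shares count promoters with at least 1 match. The capitals mark the only match here, CCAAT, which 37.6% of member promoters and 37.9% of all promoters hold. The motif GGGCGG was found in 47.9% of member promoters and 35.9% of all. The motif TATAAA, whose matches on both strands can overlap each other, was found in 8.26% of member promoters and 14.2% of all.

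Chaserr (1810026B05Rik) lies on the same strand as Chd2, a chromatin remodeller gene, and is known in mouse to repress it in cis. Their gene bounds overlap in GENCODE, with starts 16565 bases apart, so part of the coverage of 1 can come from the other. Chaserr had 636, 797 and 704 read equivalents in mutant libraries, against 829, 901 and 797 in wild-type libraries, and every mutant value was below every wild-type value, by less than 1 read equivalent at the closest. Chd2 had 2457, 2443 and 2269 in mutant libraries, against 2211, 2148 and 2177 in wild-type libraries, and here every mutant value was above. The log2 changes were -0.25 ± 0.09 (SE) for Chaserr and 0.13 ± 0.06 (SE) for Chd2, with limma adjusted p-values of 0.203 and 0.278, so neither passed the threshold.

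Several long noncoding RNAs of low level had lower values in mutant libraries. 2810025M15Rik, antisense to Rasal2, had 107, 126 and 98.9 read equivalents in mutant libraries, against 169.7, 166 and 138.2 in wild-type libraries. 4921511I17Rik, antisense to Fam49a, had 78.1, 82.8 and 88.4 in mutant libraries, against 97.5, 132 and 141 in wild-type libraries. Gm10754 had 67.4, 106 and 142 in mutant libraries, against 148, 176 and 166 in wild-type libraries. In each the groups were apart, and the authors' deposited p-values gave adjusted values of 0.0386, 0.0414 and 0.0201, against 0.131, 0.141 and 0.155 from limma. Rasal2 and Fam49a, the coding genes on the other strand, had log2 changes of 0.05 and -0.06 with overlapping groups. Mutant replicate 1 was the lowest mutant library in 18 of the 27 wholly lower RNAs and the highest in 20 of the 36 wholly higher ones. The same counts over all genes tested are not given, so a trait of these RNAs cannot be told from one of that library. C030018K13Rik had 48.5, 61.1 and 61.8 in mutant libraries, against 77.9, 78.9 and 82.8 in wild-type libraries. 4732416N19Rik had 54.3, 64.6 and 48.3 in mutant libraries, against 73.6, 80.6 and 75.7 in wild-type libraries. C630043F03Rik had 199, 248 and 271 in mutant libraries, against 277, 318 and 293 in wild-type libraries. All 3 were wholly lower, C630043F03Rik by a narrow gap. The 27 wholly lower RNAs ranged in log2 change from -0.09 to -0.71, with a median of -0.33.

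Some of the transcribed pseudogenes cannot be told from the genes they copy. Only 28 of the 46 pseudogene-class RNAs had a matched GENCODE transcript and were searched with blastn. Among these, 12 aligned over at least 50% of their length, at 90% identity or more, to a measured coding gene. Gm15772 is a copy of Rpl26, a ribosomal protein gene, at 99.5% identity over its whole length. Gm15772 had 409.7, 428 and 648 read equivalents in mutant libraries, against 732, 858 and 783 in wild-type libraries. Every mutant value was lower, with mutant replicate 3 above the other 2. The values of the copy and of the gene are nearly the same in every library, so the table does not separate them, and the log2 change of -0.70 belongs to their shared reads. Gm12669 is a copy of Glrx3, a glutaredoxin gene, at 99.1% identity, and had 113, 151 and 163 read equivalents in mutant libraries, against 192, 203 and 201 in wild-type libraries. Glrx3 had 191, 311 and 323 in mutant libraries, against 409, 471 and 431 in wild-type libraries. Both were wholly lower. Gm10052, which aligned over its whole length to Hnrnpa1 without a mismatch, was also wholly lower with its gene, at log2 changes of -0.16 and -0.20.

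Of the 12 pairs, 11 had the same sign in copy and gene. Gm7977, 91.6% identical to Ywhaq, had 1387, 888 and 716 read equivalents in mutant libraries, against 861, 771 and 749.6 in wild-type libraries, with mutant replicate 1 alone far above the rest, while Ywhaq was wholly lower at -0.15. Values for these 12 RNAs are uncertain, since reads from copy and gene cannot be assigned apart where the sequences are identical. The pseudogene-class RNAs without a matched transcript, Gm12338 and Gm13363 among them, were not searched. Whether their values include reads of a copied gene was not tested. Gm6548, another pseudogene-class RNA, had 94.7, 151 and 207 read equivalents in mutant libraries, against 229, 202 and 236 in wild-type libraries. Its groups overlapped, and its adjusted p from the authors' deposited p-values was 0.0375, against 0.186 from limma with Benjamini-Hochberg adjustment.

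Many of the RNAs begin beside a coding gene. A coding neighbour was assigned to 287 RNAs and was tested in 257 pairs, of which 133 had the same sign, with a Pearson correlation of log2 changes of 0.04 across pairs, given as a description. In 44 pairs the 2 genes start head to head, within 2000 bases on opposite strands. The 39 of these with a tested neighbour had a median distance of 120 bases, and 19 of the 39 had the same sign (r = 0.26). Of the 43 RNAs in tested pairs whose groups do not overlap, 9 had a neighbour whose groups do not overlap either. In 5 of these 9 both genes had the same direction. Among all genes tested, 24.3% had groups that do not overlap.

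5830417I10Rik starts 52 bases from Syt11, which encodes a synaptotagmin, and both were wholly higher. The noncoding RNA had 2675, 2473 and 2388 read equivalents in mutant libraries, against 2309.8, 2129 and 2208 in wild-type libraries, and Syt11 had 13464, 12444 and 11955 in mutant libraries, against 11222, 11306 and 11056 in wild-type libraries. The log2 changes were 0.18 ± 0.07 (SE) and 0.17 ± 0.06 (SE). Gm14204 starts beside Slc32a1, the vesicular GABA transporter gene that marks inhibitory neurons. Of 7 markers of inhibitory neurons, Slc32a1 among them, 2 were wholly higher and 0 wholly lower (12.3% and 12% of all genes tested). Their log2 changes had a median of 0.07 and were positive in 5 of the 7. Gm14204 had 81.3, 87.1 and 73.0 read equivalents in mutant libraries, against 68.3, 78.1 and 62.4 in wild-type libraries, which overlap, and Slc32a1 had 398, 367 and 344 in mutant libraries, against 318, 296 and 273 in wild-type libraries, wholly higher. Gm14169 and Dlgap4, a postsynaptic scaffold gene, had log2 changes of 0.32 and 0.46, and again only the coding gene was apart. The opposite pattern was seen in 2810001G20Rik, wholly lower at -0.26, and Cox10, wholly higher at 0.18, whose starts lie 16 bases apart. The start region of Gm14204 is shown because it spans both starts (RefSeq, GRCm38.p6, chr2:158610674-158610973, minus strand), with CCAAT and GGGCGG in capitals.
Gm14204: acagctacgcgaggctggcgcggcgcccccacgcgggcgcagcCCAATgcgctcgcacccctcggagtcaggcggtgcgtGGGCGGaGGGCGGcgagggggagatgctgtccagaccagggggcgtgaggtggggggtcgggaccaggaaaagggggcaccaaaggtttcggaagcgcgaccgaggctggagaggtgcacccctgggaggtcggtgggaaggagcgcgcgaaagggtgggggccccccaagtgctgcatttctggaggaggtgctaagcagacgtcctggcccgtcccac
It holds 28 CpG dinucleotides. RefSeq starts Gm14204 at base 158610723 on the minus strand and Slc32a1 at base 158610758 on the plus strand.

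**Figure D5:**
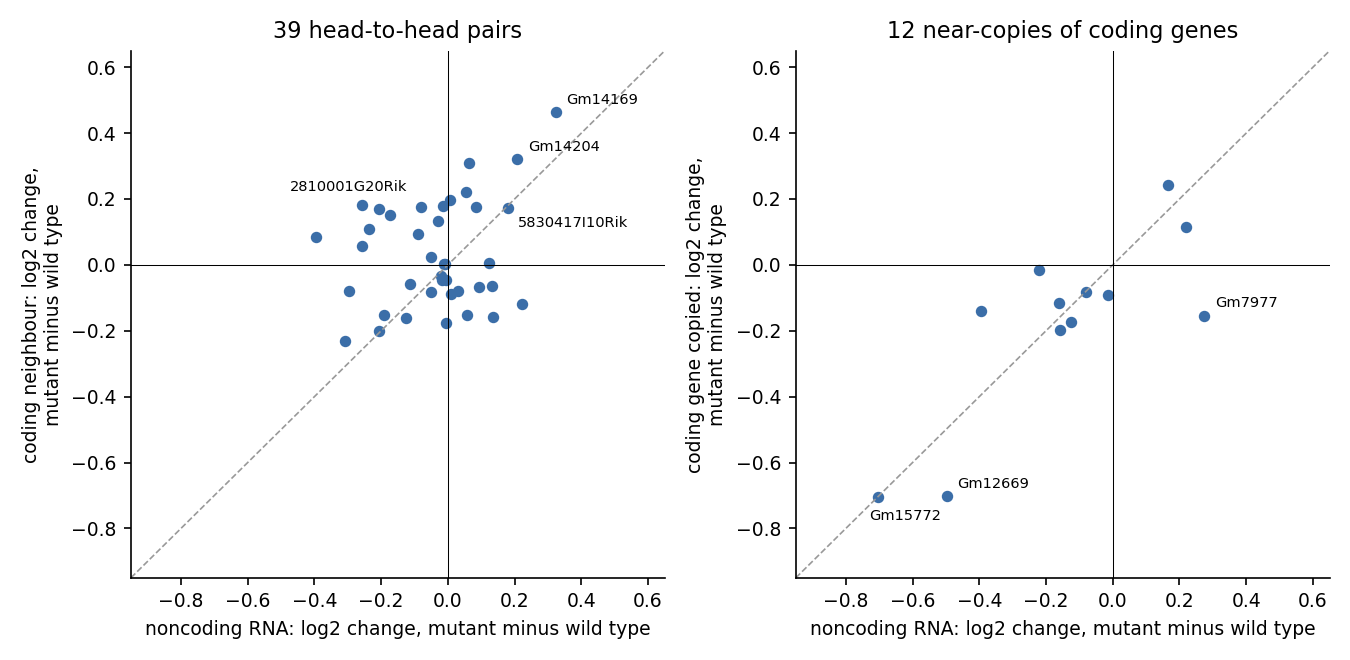
Log2 change (mutant minus wild type) of the noncoding RNA against that of the head-to-head coding neighbour (left, 39 pairs) and of the coding gene it copies (right, 12 pairs); the dashed line marks equal change. Head-to-head pairs scatter around 0 in all directions, whereas Gm15772 lies on the line with Rpl26.

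Antisense overlap was the commonest arrangement, in 104 RNAs, and 60 of 101 tested pairs had the same sign. 2900060B14Rik, antisense within Clasp1, a microtubule plus-end gene, had 445, 1074 and 1069 read equivalents in mutant libraries, against 1396, 1136 and 1232 in wild-type libraries. Every mutant value was lower, and mutant replicate 1 had less than 50% of the other 2 mutant libraries. Clasp1 had 3575, 3151 and 2999 in mutant libraries, against 2776, 2603 and 2709.8 in wild-type libraries, wholly higher. The log2 changes were -0.64 ± 0.27 (SE) and 0.26 ± 0.07 (SE). GENCODE places that small nuclear RNA gene on the strand of 2900060B14Rik itself, and small RNA genes as a group were low in mutant replicate 1, at a median log2 deviation of -0.80 from the 6-library mean. The part of that gene in the value was not tested.

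Of the 10 microRNA hosts, 8 had overlapping groups and 2 did not, against 24.3% without overlap among all genes tested. C130071C03Rik, the host of miR-9-2, had 243, 244 and 318 read equivalents in mutant libraries, against 281, 310.0 and 253 in wild-type libraries. Mir100hg had 723, 645 and 609 in mutant libraries, against 628, 602 and 524 in wild-type libraries. 5330434G04Rik, the host of miR-325 on X, had 343, 377 and 407 in mutant libraries, against 314, 377 and 302 in wild-type libraries. In all 3 the groups overlapped. Aopep (2010111I01Rik), now listed as coding for an aminopeptidase, holds the genes of miR-23b, miR-27b and miR-24-1 and had 241, 228 and 302 in mutant libraries, against 277, 323 and 342 in wild-type libraries. Mir124-2hg, named as the host of a miR-124 gene and not found by the search, had 192, 235 and 178 in mutant libraries, against 157, 169 and 204 in wild-type libraries. The groups overlapped in both. E130102H24Rik, the host of miR-101a, was the exception on the lower side, with 43.7, 57.9 and 49.7 read equivalents in mutant libraries, against 62.9, 67.2 and 73.7 in wild-type libraries. Its log2 change was -0.43 ± 0.18 (SE). A230057D06Rik, the host of the miR-344 family, was wholly higher, with 404, 358 and 407 read equivalents in mutant libraries, against 306, 319 and 329 in wild-type libraries. Its log2 change was 0.29 ± 0.09 (SE). The table measures host transcripts; the mature microRNAs were not analysed here.

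The RNAs now listed as coding, apart from Mtln, had log2 changes from -0.31 to 0.24. Borcs8 (2310045N01Rik), which encodes a subunit of a complex that positions lysosomes, had 282, 245 and 269.9 read equivalents in mutant libraries, against 241, 201 and 233 in wild-type libraries. D130043K22Rik had 911, 866 and 942 in mutant libraries, against 786, 765 and 861 in wild-type libraries. Both were wholly higher, at log2 changes of 0.24 ± 0.11 (SE) and 0.17 ± 0.08 (SE). Hjurp (6430706D22Rik), which encodes a chaperone of centromeric histone, had 715, 911 and 789 in mutant libraries, against 773, 681 and 741 in wild-type libraries, with overlapping groups.

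A230057D06Rik is 1 of 5 of these RNAs on chromosome 7 between Herc2 and Mkrn3, the imprinted region of the Prader-Willi and Angelman syndromes. B230209E15Rik, in the same stretch, had 947, 858 and 741 read equivalents in mutant libraries, against 648, 735 and 676 in wild-type libraries. It was wholly higher, with a log2 change of 0.30 ± 0.10 (SE) and an adjusted p of 0.0228 from the authors' deposited p-values. A330076H08Rik had 432, 541 and 472 in mutant libraries, against 452, 506 and 458 in wild-type libraries. Gm9962, head to head with Gabrg3, had 249, 298 and 278 in mutant libraries, against 253, 306 and 274 in wild-type libraries. Both overlapped, as did C230091D08Rik. In the imprinted Dlk1 to Dio3 region of chromosome 12, 6430411K18Rik, the host of miR-433, had 190.1, 134 and 143 read equivalents in mutant libraries, against 125, 161 and 139 in wild-type libraries. Its groups overlapped, while Meg3 of the same region had 45826, 43575 and 41190.5 in mutant libraries, against 36629, 35695 and 31399 in wild-type libraries, wholly higher at a log2 change of 0.33 ± 0.08 (SE). Rian and Mirg, noncoding RNAs of the same region, overlapped. Rian had 9876, 11606 and 11976 in mutant libraries, against 11220.0, 12533 and 11906 in wild-type libraries, at a log2 change of -0.10 ± 0.08 (SE). Mirg had 279, 241 and 259.8 in mutant libraries, against 213, 257 and 250.3 in wild-type libraries, at a log2 change of 0.12 ± 0.11 (SE).

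RefSeq places small RNA genes within the bounds of 11 of the 348 RNAs, without regard to strand. 2410006H16Rik encloses Snord49a, Snord49b and Snord65, small RNAs that guide chemical marks onto ribosomal RNA. The host had 89.9, 128 and 119.9 read equivalents in mutant libraries, against 119.5, 127 and 149 in wild-type libraries, with overlapping groups at a log2 change of -0.23 ± 0.16 (SE). Snord49a had 91.2, 152 and 179.8 in mutant libraries, against 243, 258 and 314 in wild-type libraries. Snord49b had 168, 344 and 479 in mutant libraries, against 707, 975 and 788 in wild-type libraries. Snord65 had 34.4, 50.2 and 86.5 in mutant libraries, against 95.6, 117 and 95.1 in wild-type libraries. All 3 small RNAs were wholly lower, at log2 changes of -0.99, -1.43 and -0.93, and none passed the limma threshold. The difference between host and small RNAs was not tested. Among the 11 hosts, 10 had overlapping groups and Gm10754 did not, against 24.3% without overlap among all genes tested. The wholly lower 2900060B14Rik, whose small nuclear RNA gene is from GENCODE, is not counted in the 11.

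Other RNAs with known roles overlapped between genotypes. Cdr1os, whose locus gives the circular RNA that binds miR-7, had 415, 435 and 422 read equivalents in mutant libraries, against 385, 433 and 379 in wild-type libraries. Cerox1, known in mouse and human cells to raise complex I subunit transcripts, had 247, 267 and 239 in mutant libraries, against 280.5, 209 and 250.2 in wild-type libraries. Sox1ot, beside the neural transcription factor gene Sox1, had 261, 246 and 250.0 in mutant libraries, against 292, 285 and 254 in wild-type libraries. Dubr, known in mouse to promote muscle differentiation, had 186, 151 and 185 in mutant libraries, against 175, 169 and 160.2 in wild-type libraries. Their log2 changes ran from -0.13 for Sox1ot to 0.09 for Cdr1os.

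The 5 RNAs with the largest range within a group relative to their mean were all of low level. A230001M10Rik had 27.7, 73.7 and 54.0 read equivalents in mutant libraries, against 64.5, 49.1 and 66.6 in wild-type libraries. The pseudogene Gm13034 had 31.9, 82.1 and 64.4 in mutant libraries, against 58.2, 76.6 and 78.1 in wild-type libraries. In both, mutant replicate 1 was the lowest of all 6. In 4930447K03Rik, with 178, 87.7 and 84.0 in mutant libraries, against 87.8, 78.7 and 84.6 in wild-type libraries, mutant replicate 1 was about 2-fold above every other library. 1700048O20Rik had 58.0, 50.9 and 68.6 in mutant libraries, against 76.4, 96.0 and 39.5 in wild-type libraries, and wild-type replicate 3 was lowest. 4930528A17Rik had 72.8, 63.2 and 29.7 in mutant libraries, against 63.0, 55.4 and 47.7 in wild-type libraries, and mutant replicate 3 was lowest. In all 5 the groups overlapped. The sign of the log2 change turned without 1 library in each of them but 4930447K03Rik: to 0.08 for A230001M10Rik and 0.05 for Gm13034 without mutant replicate 1, to 0.09 for 1700048O20Rik without wild-type replicate 2, and to 0.30 for 4930528A17Rik without mutant replicate 3.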

How the data were processed

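The deposited main table gives, for 35477 transcript rows and 6 libraries, a normalized signal made by the authors. The submitters' processing notes name GSNAP, DESeq2 and the build mm9; versions, settings and unit are not stated. In each library 100% of values were whole multiples of a library step of 0.759 to 1.42 (tolerance 0.01 of a step), and low multiples piled up at 42. The signal was therefore taken to be covered bases, from 42-base reads, over a size factor, and was divided by 42 here. A count model was not run. For every transcript the authors also deposited a score and a p-value that is not adjusted. The p-values were adjusted here over the same genes; the score, which carries a sign, was not printed. Deposited tables of enriched terms, cell types, motifs and bound factors were not used, and 0 per-sample columns were left out.

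For each gene the row with the highest mean was kept, except that the chosen noncoding RNAs kept their highest noncoding row. Limma 3.58.1 in R 4.3.3 was fitted to log2(read equivalents + 1) with a mean-variance trend over 15717 genes with a mean of at least 10, with two-sided p-values, Benjamini-Hochberg adjustment and a threshold of 0.05. A fold change on this scale understates that of low RNAs. The fit was tested on simulated data. "Wholly higher" or "wholly lower" means that all 3 mutant libraries lie above or below all 3 wild-type libraries. The members, lists and tests were chosen with earlier results of these data known. RNAs were named by a rule: the 10 per direction with the smallest p among those whose groups do not overlap, the 10 highest by mean and 5 per base, the 5 with the largest range within a group, and those with a known role. Others named here as neighbours, hosts, copies, region members or renamed genes were chosen after their values were seen.

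Symbols, classes and promoters came from RefSeq (GRCm38.p6), lengths, GC content and gene order from GENCODE M21 transcripts matched by identifier (287 members; 98.2% of tested genes). That build differs from mm9, so no position of a measured value is given. Near-copies were searched for with blastn 2.17.0 among the 287 members with a matched transcript (90% identity or more over at least 50% of the RNA). Alternatives were the pseudocount, the filter, the scaling, the trend, library weights, GC and length correction, summed rows, the authors' p-values and each library left out. Also added after seeing the data were fits without mutant replicate 1 and wild-type replicate 2, which follow GC content most, and without wild-type replicates 1 and 3, which are high in choroid plexus markers; the second leaves 1 wild-type library.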

Additional observations from a re-analysis of the deposited data

How the results depend on the processing

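No paired analysis was possible because every library has a different number in its title. Of 38 named RNAs, 25 kept the sign of their log2 change under every alternative. Limma called none of the 348 RNAs, but with library quality weights 6 were called higher and 3 lower, without the 2 libraries that follow GC content most (mutant replicate 1 and wild-type replicate 2) 1 and 1, and from the authors' deposited p-values 6 and 7, a table that gives no value for overlap or medians. Leaving out 1 library gave 0 to 2 called lower (2 without mutant replicate 3, Gm15772 and 1500011K16Rik). The 36 wholly higher and 27 wholly lower became 42 and 16 with quantile normalization, 68 and 15 with GC and length correction, 81 and 43 without those GC libraries, and 91 and 112 without wild-type replicates 1 and 3, high in choroid plexus markers, where fewer libraries have to lie apart and wild-type replicate 2 alone stands for its group; with 1 library left out they ranged from 44 to 61 and from 32 to 53. The 22 higher and 23 lower at an unadjusted p under 0.05 became 28 and 14 with quantile normalization, 34 higher with weights, 53 higher with GC and length correction, 10 and 7 without the GC libraries, and 12 and 12 without the choroid plexus libraries, a fit whose spread comes from the mutant libraries alone and assumes that the lone wild-type library varies like them; with 1 library left out they ranged from 12 to 26 and from 9 to 27. The median log2 change of 0.0009 became 0.0349 with quantile normalization, 0.0754 with GC and length correction, 0.0329 without the GC libraries and -0.0298 without the choroid plexus libraries, and ran from -0.0112 to 0.0204 with 1 library left out. The log2 change of Ptchd1 held its sign but lost the limma threshold with no filter (-1.28, adjusted p 0.134), quantile normalization (-1.25, 0.0557), no trend (-1.28, 0.292), summed rows (-1.28, 0.0749) and in that fit with 1 wild-type library (-1.35, 0.407); with 1 library left out it ran from -1.41 to -1.17, and was lost without mutant replicate 2 (0.223), wild-type replicate 1 (0.0643) or wild-type replicate 3 (0.371). The cause of these shifts was not tested. Shares of all genes tested are not given here for quantile normalization or with 1 library left out. For unadjusted p-values they are also not given with weights or with GC and length correction. In these settings a move of the 348 RNAs cannot be told from a move of the whole table. The sign turned as follows. Without the choroid plexus libraries, the log2 change was -0.0499 for C230091D08Rik, -0.0170 for 6820431F20Rik, -0.0314 for A330023F24Rik, -0.0296 for 4933431E20Rik and -0.0657 for 1110002L01Rik. Without the GC libraries, it was 0.0283 for 1700020I14Rik, -0.0107 for Gm7977, 0.108 for Gm13034, -0.00570 for 4930447K03Rik, 0.102 for 1700048O20Rik and 0.0628 for C130071C03Rik. With GC and length correction, it was 0.0448 for 1700020I14Rik, -0.0267 for 4933431E20Rik and 0.234 for C130071C03Rik. With quantile normalization, 4933431E20Rik stood at -0.00631, and with weights 1110002L01Rik at -0.00135 and 1700048O20Rik at 0.0198. With 1 library left out, it ran from -0.0173 to 0.0903 for C230091D08Rik, from -0.219 to 0.00644 for 1700020I14Rik, from -0.00874 to 0.0230 for 4933431E20Rik, from -0.0352 to 0.0513 for 1110002L01Rik, from -0.609 to 0.0815 for A230001M10Rik, from -0.621 to 0.0471 for Gm13034, from -0.537 to 0.0934 for 1700048O20Rik and from -0.335 to 0.298 for 4930528A17Rik. Depth limits the low RNAs: the median half-width of the 95% interval was 0.39 on the log2 scale at 50 to 99 read equivalents.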
